A study of Mus musculus with 6 samples.

Results

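The tripartite motif (TRIM) genes were examined after knockdown of Brca2 in KPC cells, which are cultured mouse pancreatic cancer cells of the ductal type. A gene was taken as a member when its symbol in the deposited count table was Trim followed by a digit, and 31 of the 10616 genes in the table were members. RefSeq lists 69 such symbols in the mouse genome, and the other 38 were not analysed here. The 6 libraries came from 2 groups of 3: KPC cells that carried a lentiviral short hairpin RNA against Brca2 (shBrca2), and KPC cells that carried a non-targeting hairpin (shControl). Both groups were selected with puromycin and grown in the same medium. Live cells that excluded propidium iodide were then sorted for RNA. KPC cells derive from tumors of a mouse model that carries mutant p53, a lesion that both groups share. A change caused by the selection of a hairpin line cannot be told apart from one caused by loss of Brca2.

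TRIM proteins carry a RING finger, B-box zinc fingers and a coiled coil at the N terminus, and differ in their C-terminal domains. The RING finger recruits an E2 enzyme loaded with ubiquitin, which makes most TRIM proteins E3 ubiquitin ligases, while the B-box and the coiled coil build dimers and larger assemblies. The family is known for its roles in antiviral defense, in chromatin silencing and in the turnover of signaling proteins and of p53.

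Total counts ranged from 1519340 to 2452467 per library. Counts were also scaled to counts per 1000000 counts of the library (CPM). On 8 markers of ductal epithelium, among them the keratins and Epcam, fell 8180 to 8490 CPM in shBrca2 and 8530 to 9330 in shControl. This difference was not tested. The only fibroblast marker analysed, Col1a2, had at most 10.5 CPM. Of the leukocyte markers, Cd68 and Cd14 together had 108 to 176 CPM in shBrca2 and 155 to 227 in shControl. The acinar markers Prss2 and Cela1 together had at most 31.4 CPM, and the endothelial marker Cd34 at most 8.9. Brca2, the targeted gene, had 13.6, 10.4 and 12.2 normalized counts in the shBrca2 libraries, against 33.3, 43.6 and 32.6 in the shControl libraries. The libraries therefore followed their labels. One library stood apart from the others: shControl replicate 3 had a score of 37.98 on the first principal component of genes with a mean of at least 10 normalized counts, which held 41.1% of the variance, while the other 5 libraries lay between -21.95 and 13.56. The fold changes of 9 members are given with and without it.

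The TRIM family of these cells was dominated by a few members. Trim28 alone took 26.8% of all counts assigned to the 31 members, and the 5 most abundant members, Trim28, Trim35, Trim26, Trim8 and Trim47, took 65.2%. Levels are given as normalized counts, which are counts divided by the size factor of the library, in the order of replicates 1, 2 and 3. Each transcript was sequenced at its 3' end, so long transcripts gain no extra counts, and levels of different genes are set side by side on that basis. The base mean, the mean normalized count over the 6 libraries, was at least 100 for 7 members and under 20 for 14. The median member had a base mean of 20.8, against 57.0 for the median gene of the table.

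**Figure D1:**
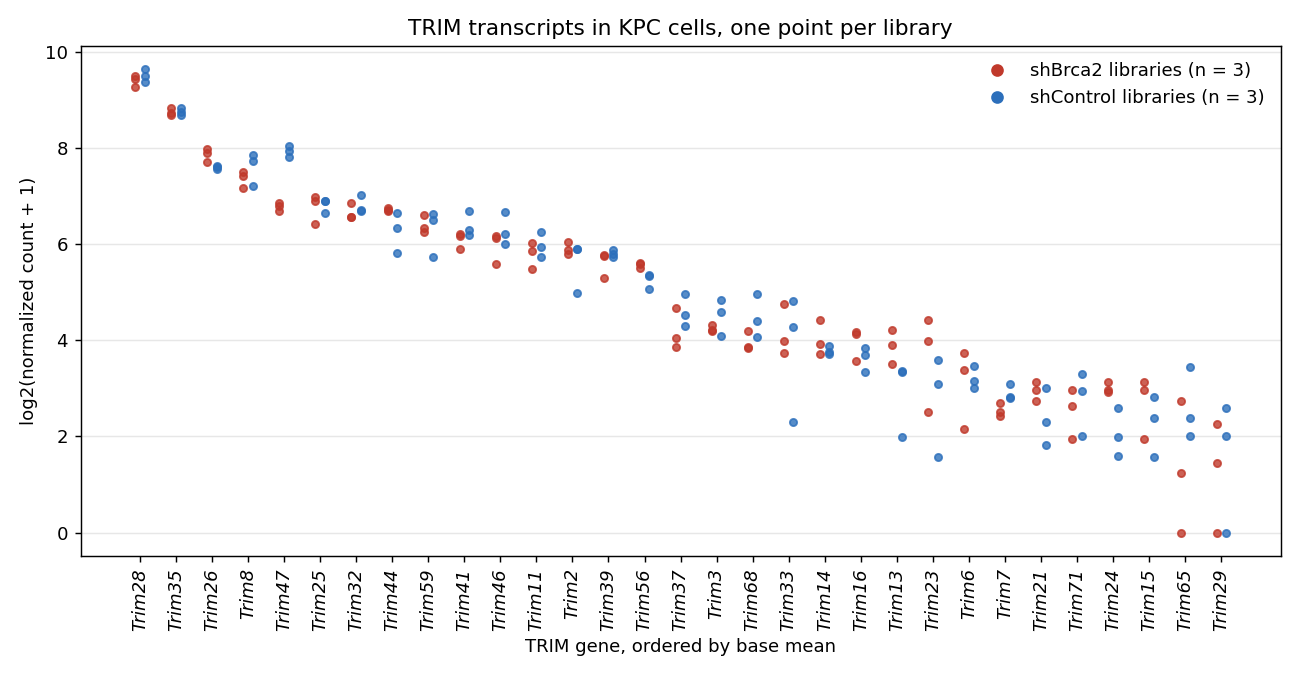
Level of each TRIM gene, as log2(normalized count + 1), in the 3 shBrca2 libraries (red) and the 3 shControl libraries (blue), with genes ordered by base mean. Trim28 lies highest, the 3 red points of Trim47 lie below its 3 blue points, and Trim65 and Trim29 lie at the lower end with points at 0.

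Trim47 was lower in the Brca2 knockdown. It encodes a RING-type ligase with a C-terminal SPRY domain, a fold used to bind target proteins. Trim47 had 116, 102 and 111 normalized counts in the shBrca2 libraries, against 263, 244 and 223 in the shControl libraries. Every shBrca2 library was low and the groups did not overlap. With n = 3 in each group, the shBrca2 mean was 109 ± 6.9 (SD) and the shControl mean 243 ± 19.6 (SD). By the DESeq2 likelihood ratio test over all genes, Trim47 changed by -1.16 ± 0.20 (SE) on the log2 scale, with a 95% interval from -1.54 to -0.77 (adjusted p = 5.44e-06). In these bulk libraries, fewer cells that express a gene and less of its RNA per cell cannot be told apart. Trim47 was singled out with this result already known.

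Calls needed an adjusted p under 0.1, a base mean over 5 and a log2 fold change beyond 0.5 in either direction. Trim47 was the only one of the 29 members with an adjusted p to be called, and it was called lower. Over all genes tested, 1.27% were called in either direction, so a single call among 29 genes sets the family little apart from the background. Trim47 ranked 9 by p among the 9997 genes with an adjusted p. The call held in each of the 6 fits that left out a library, with log2 fold changes from -1.22 to -1.10. Without shControl replicate 3 the value was -1.22 (adjusted p = 5.73e-05 by DESeq2). The edgeR quasi-likelihood test gave -1.15 with an adjusted p of 0.00812, the largest p among the alternatives, and called 1.33% of the genes it tested.

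Within the family, the rank and share of Trim47 restate the counts behind its fold change and are no separate result. In shControl Trim47 was the member with rank 3 by mean, above Trim8 and Trim26. In shBrca2 it had rank 6, beside the 109.9 ± 21.5 (SD, n = 3) of Trim25 above it and the 104.8 ± 2.82 (SD, n = 3) of Trim44 and 101.1 ± 12.7 (SD, n = 3) of Trim32 below it. The values of Trim47 in the 3 libraries overlapped those of each of these members, and the differences between members were not tested. Its share of all member counts was 4.46%, 3.99% and 4.56% in the shBrca2 libraries, against 9.40%, 9.01% and 8.53% in the shControl libraries.

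Trim47 lies on the minus strand of chromosome 11, from 116105750 to 116110235 in GRCm38.p6, the build that corresponds to the mm10 used by the submitters. The 250 bases before its start are shown because they are the promoter of the member that was lower. They span chr11:116110236-116110485 and are written 5' to 3' on the strand of the gene, from RefSeq, with matches to the GC box (GGGCGG on either strand) in capitals.
Trim47 promoter: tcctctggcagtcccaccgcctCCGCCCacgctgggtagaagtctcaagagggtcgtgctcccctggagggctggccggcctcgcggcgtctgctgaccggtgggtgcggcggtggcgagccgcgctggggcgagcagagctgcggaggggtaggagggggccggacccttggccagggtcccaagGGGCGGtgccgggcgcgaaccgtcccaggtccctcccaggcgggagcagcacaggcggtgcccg
The window held 2 GC boxes, the motif read by Sp1-type factors, and no CCAAT box, TATA box or E-box. Promoter windows were matched for 22 of the 31 members, and a member was counted when any of its windows held the motif. The shares over all promoters count single windows, so they are not in the same unit as the counts of members. On either strand, the GC box was found in 16 of the 22 members, beside 32.7% of all 32851 promoter windows of this length. The CCAAT box, spelled by its name, was found in 10 of the 22, beside 33.8% of all windows. The E-box, searched as CACGTG, was found in 3, beside 6.02%. The TATA box, searched as TATAAA, was found in 1, beside 12.4%. The members with the GC box included Trim28, Trim25 and Trim44 as well as Trim47, and a link between motif and level was not tested. These matches describe the letters in the window and are not measured binding sites.

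The closest gene to Trim47 is Trim65, a ligase that also ends in a SPRY domain and is known for ubiquitinating the RNA sensor MDA5. Trim65 lies 14472 bases away on the same strand, from 116124708 to 116131413 on chromosome 11 of GRCm38.p6. It was near the detection limit in both groups. The raw counts of Trim65 were 1, 6 and 0 in the shBrca2 libraries, against 3, 5 and 10 in the shControl libraries. The groups overlapped. For Trim65 the log2 fold change was -1.26, its standard error 1.12 and its 95% interval from -3.46 to 0.93. DESeq2 gave it no adjusted p, because its base mean of 4.02 was under the filter at 4.64. A change of Trim65 as large as that of Trim47, or no change, was within this interval, so a difference was not detectable at this depth.

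The ratio of the neighbours was then compared within each library. The log2 ratio of Trim47 over Trim65, with 0.5 added to both normalized counts, was 5.96, 4.06 and 7.79 in the shBrca2 libraries, against 6.22, 5.70 and 4.43 in the shControl libraries. The groups overlapped, and Trim65 entered the ratio with between 0 and 10 counts. The mean difference of 0.49 was within the spread between replicates (p = 0.9 by an exact two-sided permutation test, whose smallest possible p is 0.1 with 3 libraries a group). It changed sign without shBrca2 replicate 3 (-0.44) and without shControl replicate 3 (-0.02). Whether the fall of Trim47 extends to Trim65 could therefore not be resolved.

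The annotation was also examined for reads that both genes could claim. Both genes are on the minus strand, and Trim65 lies upstream of the start of Trim47. In GENCODE vM39 on GRCm39, 13 of the 14 transcripts of Trim47 do not reach Trim65. The remaining transcript has no defined coding sequence and shares 225 exon bases with Trim65. How the counting treated such reads is not given in the sources used here. Trim65 never had more than 10 counts in a library, and Trim47 never had fewer than 85.

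Trim47 also has other neighbours, and 10 genes within 100 kb of it were compared. None of the 10 was called by DESeq2, and none of the 9 that edgeR tested, beside 1.27% and 1.33% of all genes. Mrpl38 and Ten1 had an unadjusted p under 0.05 by DESeq2, and edgeR added Fbf1. Their log2 fold changes ran from -0.58 for Fbf1 to 0.19 for H3f3b once Trim65 is set aside. In all, 8 of the 10 had a log2 fold change below 0, beside 50.2% of all genes tested. An unadjusted p under 0.05 was given to 8.66% of all genes tested by DESeq2 and to 14.5% by edgeR. The groups did not overlap for 3 neighbours, Galk1, Fbf1 and Ten1, all lower in shBrca2, beside 10.1% of all genes. H3f3b, a histone gene, had 1208, 851 and 1276 normalized counts in the shBrca2 libraries, against 1538, 1032 and 346 in the shControl libraries, so shControl replicate 3 was the low library. Ten1, a telomere capping gene 88.62 kb away, had 101, 94.5 and 109.6 normalized counts in the shBrca2 libraries, against 139, 141 and 157 in the shControl libraries. These groups did not overlap, yet the log2 fold change of -0.52 ± 0.22 (SE) did not pass (unadjusted p = 0.0159, adjusted p = 0.378 by DESeq2). Fbf1, a centriole gene 32.05 kb away, had 36.8, 44.4 and 32.2 against 55.6, 57.0 and 56.4 normalized counts, again without overlap. Its log2 fold change of -0.58 ± 0.31 (SE) had an adjusted p of 0.622 by DESeq2. The 95% intervals of 2 of the 10 neighbours, Trim65 and Fbf1, included the value of Trim47.

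**Figure D2:**
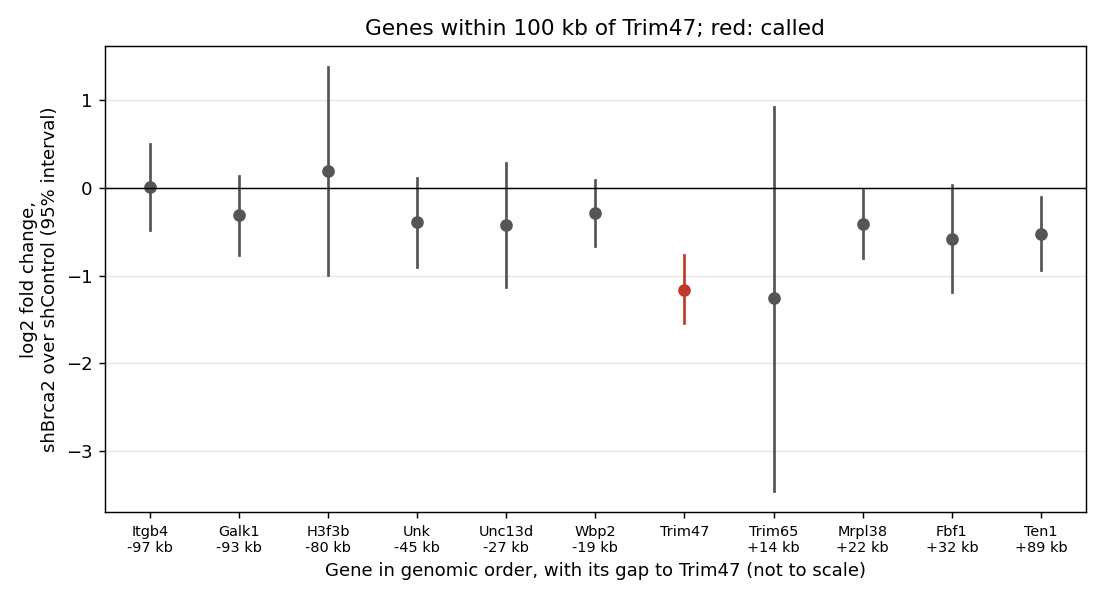
Log2 fold change of shBrca2 over shControl with its 95% interval for Trim47 (red, called) and the 10 genes compared within 100 kb, in genomic order. Each label gives the gap to Trim47 in kb. Trim47 is the only called gene, and the interval of Trim65 (-3.46 to 0.93) is the widest.

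The chromatin members came next in the order of roles. Trim28, also known as KAP1, is the corepressor that zinc finger proteins of the KRAB type recruit to silence transposons. It had 719, 694 and 618 normalized counts in the shBrca2 libraries, against 800.2, 720.4 and 662 in the shControl libraries. The groups overlapped, and the log2 fold change was -0.11 ± 0.15 (SE). Its 95% interval, from -0.40 to 0.19, was among the narrowest in the family. Trim33, which ubiquitinates Smad4, had 25.9, 12.3 and 14.8 against 27.3, 18.4 and 3.96, with the lowest value in shControl replicate 3. Trim24, a nuclear receptor coregulator that also acts on p53, had 6.81, 6.62 and 7.83 against 2.02, 5.03 and 2.97. The groups of Trim24 did not overlap, but at a base mean of 5.21 its log2 fold change of 1.07 had a standard error of 0.88 (adjusted p = 0.852 by DESeq2).

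Members with antiviral roles were not called. Trim25, which activates the RNA sensor RIG-I, had 125, 119 and 85.3 normalized counts in the shBrca2 libraries, against 100.03, 118 and 118 in the shControl libraries, a log2 fold change of -0.04 ± 0.24 (SE). Trim26, a SPRY ligase encoded in the major histocompatibility complex, had 252, 239 and 209.7 against 196, 194 and 188. These groups did not overlap, and the log2 fold change of 0.28 ± 0.18 (SE) did not pass (adjusted p = 0.752 by DESeq2). Trim56, known for roles in sensing of viral RNA and DNA, had 47.7, 47.3 and 44.4 against 39.4, 40.3 and 32.6, with a log2 fold change of 0.31 ± 0.32 (SE). Trim21, the cytosolic antibody receptor, and Trim14 were low, with base means of 5.64 and 14.2. Of the 15 genes listed for this role, 7 were analysed here and 0 were called by DESeq2, beside 1.27% of all genes tested. By edgeR 0 of the 4 tested were called, beside 1.33%. Neither tool gave any of the 7 an unadjusted p under 0.05, beside 8.66% of all genes by DESeq2 and 14.5% by edgeR. At these shares a list this short says little about its members. The 6 of them with an adjusted p had a median log2 fold change of 0.27, beside 0.00 for all genes tested.

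Other abundant ligases had 95% intervals that included 0. Trim35, a SPRY member, had 411, 427 and 459 normalized counts in the shBrca2 libraries, against 433, 413 and 455 in the shControl libraries. Its log2 fold change was 0.00 with a 95% interval from -0.30 to 0.30, which is one of the tightest limits in the family. Trim8, which lacks a recognized C-terminal domain, had 172, 181 and 144 against 147, 210.5 and 229. The 3 shControl values of Trim8 differed more among themselves than the group means did. Trim41, a SPRY member that was 7.94 kb from Trim7, had 58.6, 73.7 and 71.4 against 103, 77.2 and 72.2. Trim41 and Trim7 had log2 fold changes of -0.30 and -0.44, neither of them called. Trim7 was low, with a base mean of 5.68 and a 95% interval from -2.04 to 1.16, so its direction was not resolved.

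Members with other architectures were also described. Trim32, an NHL repeat ligase mutated in a limb girdle muscular dystrophy, had 94.0, 93.6 and 116 normalized counts in the shBrca2 libraries, against 129, 104 and 102 in the shControl libraries, a log2 fold change of -0.14 ± 0.23 (SE). All 4 NHL repeat members were analysed, and their log2 fold changes ran from -0.35 for Trim71 to 0.26 for Trim2. Trim59, a membrane-anchored member, had 96.7, 79.4 and 75.7 against 52.5, 98.1 and 89.98, so shControl replicate 1 was the low library. Trim13, which sits in the endoplasmic reticulum membrane, had 17.7, 10.4 and 13.9 against 9.09, 9.22 and 2.97, with a log2 fold change of 0.96 ± 0.65 (SE). Trim46 binds microtubules at the start of the axon in neurons. It was the only one analysed here of the 9 genes listed as COS box members. That list did not hold Mid2, which is described below with the genes outside the 31 members. Trim46 had 69.5, 70.9 and 46.99 against 101, 62.9 and 73.2, a log2 fold change of -0.34 ± 0.29 (SE). Trim37, a MATH domain ligase that controls centrosome number, had 13.6, 24.6 and 15.7 against 22.2, 30.2 and 18.8, a log2 fold change of -0.40 ± 0.46 (SE).

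Members without a RING finger lack the domain that defines the ligases. Among them, Trim44 had 102.2, 107.8 and 104.4 normalized counts in the shBrca2 libraries, against 55.6, 80.5 and 99.9 in the shControl libraries. The shBrca2 values were nearly equal and all lay above the shControl values, which were widely spread. The log2 fold change of 0.41 ± 0.26 (SE) did not pass (adjusted p = 0.724 by DESeq2, the smallest in the family after Trim47). Without shControl replicate 3 it was 0.61 ± 0.29 (SE), where DESeq2 gave an unadjusted p of 0.0345 and an adjusted p of 0.62. Without shControl replicate 1 it was 0.22 ± 0.27 (SE), with DESeq2 p-values of 0.41 unadjusted and 0.897 adjusted. Trim29, known as ATDC and studied in pancreatic cancer, had 0, 4 and 2 counts in the shBrca2 libraries, against 3, 6 and 0 in the shControl libraries, too few for a comparison.

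**Figure D3:**
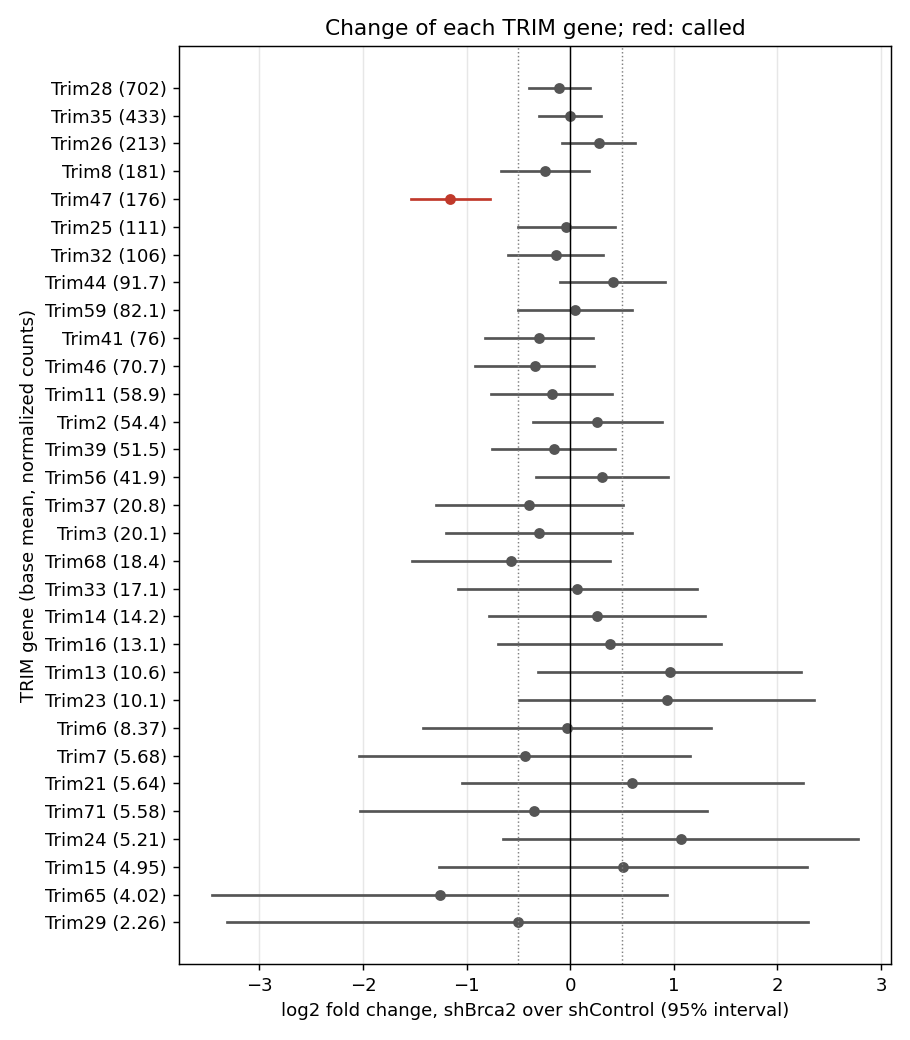
Log2 fold change of shBrca2 over shControl with its 95% interval for the 31 TRIM genes, ordered by base mean (in parentheses). Trim47 (red) is the called gene, at -1.16, and intervals widen toward the bottom as counts fall. Dotted lines mark log2 fold changes of -0.5 and 0.5.

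The precision of these comparisons followed the depth. The median standard error of the log2 fold change was 0.27 for the 17 members with a base mean of at least 20 and 0.77 for the other 14. For 14 members the 95% interval lay within -1 and 1, and all 14 were among the 17. Over all genes, 58.3% had an interval within these limits. With Trim47 set aside, the log2 fold changes of the more abundant members ran from -0.40 to 0.41, with a median size of 0.25. The intervals of 16 members lay wholly above that of Trim47, while those of 9 included its value, so a fall of the same size lay within the interval of these 9. In 7 members the groups did not overlap, higher in shBrca2 for 5 and lower for 2, beside 10.2% and 10.1% of all genes. Trim47 was the 1 member with an unadjusted p under 0.05, beside 8.66% of all genes tested.

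The library that stood apart was then examined among the members. shControl replicate 3 had the lowest normalized count of the 6 libraries, ties included, for 8 of the 31 members, among them Trim2, Trim33, Trim13 and Trim23. Over all genes it was lowest for 18.7%. Trim23, which carries an ARF-type GTPase domain, had 20.4, 4.73 and 14.8 normalized counts in the shBrca2 libraries, against 11.1, 7.55 and 1.98 in the shControl libraries. Without this library the log2 fold change of Trim23 went from 0.93 to 0.49 ± 0.74 (SE) and that of Trim13 from 0.96 to 0.60 ± 0.67 (SE). Trim33 went from 0.07 to -0.40 ± 0.55 (SE), and so changed direction. Trim2, an NHL repeat member, went from 0.26 to 0.01 ± 0.32 (SE), and Trim71, of the same class, from -0.35 to -0.02 ± 1.03 (SE). At fewer than 5 normalized counts on average, Trim65 went from -1.26 to -0.62 and Trim29 from -0.50 to -1.07. None of these values was called in either fit.

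The summed level of the family was compared next. The 31 members together had 1255, 1233 and 1180 CPM in the shBrca2 libraries, against 1318, 1316 and 1297 in the shControl libraries. All 3 shBrca2 sums were below the shControl sums. The mean was 6.7% lower in shBrca2, with p = 0.1 by an exact two-sided permutation test, the smallest p that 3 against 3 libraries allow. Without Trim47 the sums were 1199, 1184 and 1126 against 1194, 1198 and 1187 CPM. These sums overlapped, with a mean difference of -1.9% (exact two-sided permutation test, p = 0.5). The mean difference was -87.9 CPM for the full sum and -64.7 CPM for Trim47 alone. Trim47 was singled out with its fall known, so the 2 sums are descriptions and not independent tests of the family.

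**Figure D4:**
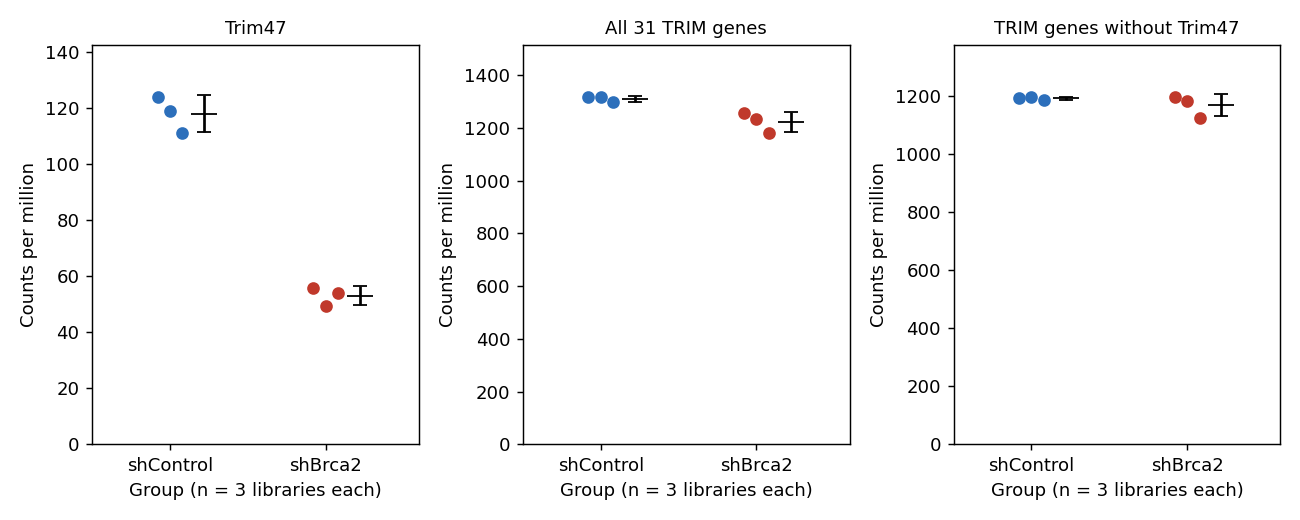
CPM of Trim47, of all 31 TRIM genes summed, and of the sum without Trim47, in the 3 libraries of each group (points), with mean and SD (black). Trim47 was 53.0 ± 3.44 in shBrca2 and 118 ± 6.73 in shControl, and the groups overlap once it is left out of the sum. Trim47 was singled out with its fall known. Axes start at 0.

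Genes that work with TRIM ligases were then examined. Pml, the TRIM protein that builds nuclear bodies, had a log2 fold change of -0.31 ± 0.30 (SE). For Mid2, a microtubule-binding TRIM protein whose symbol put it outside the 31 members, the value was 1.21 ± 0.82 (SE) at a base mean of 6.16. Neither was called. Of 6 ubiquitin precursor and E1 genes listed, 5 were analysed and 0 were called, with log2 fold changes from -0.22 to 0.32. Of 12 E2 enzymes, 8 were analysed and 0 were called, with a median log2 fold change of 0.12 beside 0.00 for all genes. DESeq2 called 1.27% of all genes tested, so 0 calls set lists this short little apart from the background. Ube2d1, an E2 enzyme that pairs with many RING ligases, was chosen for mention after its values were seen. It had 74.9, 87.9 and 62.7 normalized counts in the shBrca2 libraries, against 52.5, 47.8 and 31.6 in the shControl libraries, and its log2 fold change of 0.77 ± 0.30 (SE) did not pass (adjusted p = 0.322 by DESeq2).

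The partners of Trim28 and the interferon genes held no call either, beside 1.27% of all genes called by DESeq2 and 1.33% by edgeR. Lists this short without a call are near these shares. Of 10 genes of the Trim28 silencing pathway listed, 9 were analysed, with log2 fold changes from -0.56 for Daxx to 0.68 for Morc3. Setdb1, the methyltransferase that Trim28 brings to chromatin, had a log2 fold change of 0.05 ± 0.23 (SE). Among 16 interferon and RNA sensing genes, 8 were analysed and 0 were called, and the 7 with an adjusted p had a median log2 fold change of -0.17. Irf3, the transcription factor at the end of the RNA sensing pathway, had a log2 fold change of -0.14 ± 0.21 (SE). Isg15, a ubiquitin-like protein induced by interferon, had 4.09, 5.67 and 4.35 normalized counts in the shBrca2 libraries, against 18.2, 3.35 and 1.98 in the shControl libraries, where 1 library carried the high mean. Over the lists of ubiquitin, E2, Trim28 and interferon genes, edgeR also called 0 of the genes it tested. By DESeq2, 1 E2 gene (Ube2d1) and 2 partners of Trim28 (Chd4 and Daxx) had an unadjusted p under 0.05, and edgeR added Morc3. The partners thus stood at 2 and 3 of 9 genes, beside 8.66% of all genes by DESeq2 and 14.5% by edgeR.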

How the data were processed

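Poly(A) RNA of sorted KPC cells was sequenced by a variation of MARS-seq, a 3' end protocol. The authors deposited raw counts, 1 value for each gene symbol and library, neither normalized nor pooled. Per the submitters' processing notes, bcl2fastq, cutadapt, STAR 2.4.2a, HTSeq and DESeq2 were used with mm10. The strand setting, the annotation and the use of molecular identifiers are not given in the sources used here, so 19 members whose exons overlap another gene, 16 of them a gene on the opposite strand, have uncertain counts. Among those named are Trim47 and Trim65, which share exon bases with each other. Trim28, Trim35, Trim46, Trim41, Trim59, Trim44, Trim37, Trim23, Trim14, Trim13, Trim2, Trim7 and Trim71 are also among them. Groups came from the source name in the labels. The labels do not say whether replicates are separate cultures, so p-values measure only the spread between these samples.

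Following the study's methods, all 10616 genes were fitted with DESeq2 1.42.0 in R 4.3.3 (likelihood ratio test of group, median-of-ratios size factors, Benjamini-Hochberg adjustment over 9997 genes). Intervals are the log2 fold change with 1 SE scaled to 95% by the normal distribution, and they do not cover error beyond these libraries. The test was also run on simulated data. The alternatives were edgeR 4.0.16, the DESeq2 Wald test, TMM factors, total counts, other filters and thresholds, and each library left out. The members and lists were chosen with earlier results of these data known. Values in every library were given for Trim47, Trim65, called members, the 10 members with the highest base mean and the 3 lowest and 3 highest log2 fold changes at a base mean of at least 20. Genes of the lists and neighbours of Trim47 were named with values for some only, and 1 neighbour is not reported here. Promoters and positions came from RefSeq on GRCm38.p6, where all 31 members matched by symbol.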

Additional observations from a re-analysis of the deposited data

How the results depend on the processing

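The count of called TRIM members was 1 in every fit, and Trim47 was that gene in each. Its log2 fold change ranged from -1.22 to -1.10 over the 6 fits that left out a library and from -1.16 to -1.15 over the others. The number of members with an unadjusted p under 0.05 ranged from 1 to 2 over the fits that left out a library, and the second was Trim44 without shControl replicate 3. Trim65 was at -3.35 with shBrca2 replicate 2 left out and at -0.62 with shControl replicate 3 left out, its lowest and highest values, at counts of 10 or fewer. The log2 ratio of Trim47 over Trim65 differed between groups by -0.44 to 1.43 when a library was left out, by 0.13 with CPM and by 0.14 with a pseudocount of 1, chosen after seeing the data. With no pseudocount it has no value, as 1 library holds 0 Trim65 counts. The summed level differed by -1.9% without Trim47, and by -7.9% to -5.1% over the fits that left out a library. For the other 12 members given in every library by rule, 135 of 144 comparisons kept their direction and stayed uncalled. The 9 that changed direction belonged to genes near 0. Trim35 was 0.00195 by edgeR and 0.00241 after a filter of 10 counts in 3 libraries, and ranged from -0.05 to 0.03 when a library was left out. Trim25 ranged from -0.14 to 0.12 and Trim59 from -0.18 to 0.23. No scaling moved the median of all genes by over 0.1. No paired analysis was possible because nothing in the labels pairs a library of one group with a library of the other.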
